A study of Homo sapiens with 9 samples.

Results

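Cells answer broken or stalled DNA with a small set of kinases, adaptors and ligases, and 43 genes of that set were followed here in MDA-MB-231 cells, an established human triple-negative breast cancer line. The genes were chosen by name, as known components of break signalling, the checkpoint and end joining, but with earlier results of these data known. All 43 were found by Ensembl identifier among the 63657 genes of the deposited expression table. RNA was compared between shControl cells, which carry a control construct, and shLOXL2 cells, which were infected with a short hairpin RNA against LOXL2, with 2 libraries in each group. LOXL2 is a lysyl oxidase-like enzyme to which oxidation of histone H3 at lysine 4 (H3K4ox) is attributed, and the series as a whole asks how that mark relates to DNA damage repair. The number of hairpins, the time after infection and any DNA-damaging treatment are not stated in the labels. Nor do the labels say whether the replicates grew as separate cultures, and the p-values then describe only the spread between these libraries, which may be technical.

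In a cell with broken DNA, the kinase ATM is activated at the break ends, whereas ATR, bound to its partner ATRIP, is recruited to single-stranded DNA at stalled replication forks and resected ends. Both pass the signal to the effector kinases CHEK2 and CHEK1, which restrain CDC25 phosphatases and so hold back the cyclin-dependent kinases that WEE1 and PKMYT1 phosphorylate. Ubiquitin ligases and adaptors such as MDC1, RNF168 and TP53BP1 mark the chromatin around a break, and the Ku, DNA-PK and ligase IV machinery then rejoins the ends.

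Levels are given in FPKM, which counts fragments relative to transcript length and to the total mapped in a library so that genes can be compared with each other. The hairpin target LOXL2 read 85.5 and 84.5 FPKM in shControl against 15.2 and 12.1 FPKM in shLOXL2. VIM, a mesenchymal marker abundant in this line, lay between 2011 and 2104 FPKM, while the hormone receptor genes ESR1 and PGR did not exceed 0.0822 FPKM. The other luminal genes listed with them read higher over the 4 libraries: ERBB2 26.1 to 29.8, GATA3 0.944 to 1.66 and CDH1 0.339 to 1.51 FPKM. VIM and LOXL2 belong to a list of 8 genes taken as defining for the line. All 8 averaged 1 FPKM or more. Of these 3 fell (LOXL2, CD44 and EGFR) and 3 rose (MSN, CAV1 and KRT18), against 8.54% and 8.35% of all genes tested. The hairpin was aimed at LOXL2, so its fall was set by the design and is no result about this list. Markers of other cell types averaged 1 FPKM or more for 2 of 10 fibroblast genes (COL1A1 and PDGFRB), 2 of 10 haematopoietic genes (CD14 and LYZ) and 1 of 7 endothelial genes (KDR), and CD3E and PECAM1 were listed at 0 in all 4 libraries. The summed fibroblast markers were 6.07 and 7.43 FPKM in shControl and at 12.4 and 10.2 FPKM in shLOXL2, and COL1A1 was the marker among these that rose. The depth of the libraries is unknown, since FPKM carries no read count. Summed over all genes, FPKM came to 1244377 and 1221571 in shControl but to 1330441 and 1369375 in shLOXL2, and mitochondrial genes took 20.4% and 18.5% of it in the former and 22.8% and 22.1% in the latter. Both measures were higher in the shLOXL2 libraries, and their part in the members' differences was not tested.

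A gene is said to rise or fall when limma's moderated test on log2(FPKM + 1) gave a Benjamini-Hochberg adjusted p below 0.05 over the 16987 genes that averaged 1 FPKM or more, a filter that all 43 genes passed. Of the 43 genes 10 fell, or 23.3%, against 8.54% of all genes tested and 10.4% of protein-coding genes in that fit. None of them rose, against 8.35% of all genes and 10.4% of protein-coding genes, and limma gave 3 of the 43 a higher value at an unadjusted p below 0.05, where it did so for 17.6% of all genes tested. An unadjusted p below 0.05 is common in these libraries: 18.2% of all genes tested were lower by it and 35.9% differed in either direction, and the counts by unadjusted p given further on are to be read against those shares. The genes that fell were CLSPN, TOPBP1, TIPIN and RAD1 of the ATR pathway, RIF1 of the break mediators, PKMYT1 of the mitotic brake, LIG4 of end joining, and SMC5, SMC6 and USP1. Since the 43 genes were chosen with earlier results of these data known, the shares called among them describe the list and do not test it. The median log2 difference over the 43 genes was -0.12, with 28 negative and 15 positive, beside a median of -0.0041 over all genes tested. The libraries of the groups did not overlap for 23 genes that were lower and 6 that were higher in shLOXL2, where 32.8% and 31.8% of all genes tested (37.2% and 34.9% of protein-coding genes) did not overlap in those directions. Lower RNA in a bulk sample can mean fewer cells that express a gene or less RNA in each cell, and the libraries cannot tell these apart.

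The number of calls moved with the settings of the fit. CLSPN, RIF1 and PKMYT1 were the only members called without a filter on low values, where 1.50% of all genes were called lower, and those together with LIG4 were called with a variance prior without a trend, where 6.02% were. When protein-coding genes were fitted alone, 18 members fell and 2 rose, where 19.4% and 19.0% of the genes in that fit did. All 10 calls were lost in each of the 4 fits without shControl replicate 1, shControl replicate 2, shLOXL2 replicate 1 or shLOXL2 replicate 2, with adjusted p from 0.0930 to 0.222 and a negative log2 difference throughout. Calls were rare among all genes in those fits too, with 1.03%, 1.28%, 0.436% and 0.412% called lower in the order named, against 8.54% with all libraries. The size of the differences moved little for the genes with the closest replicates, from -0.76 to -0.73 for CLSPN and from -0.37 to -0.36 for RIF1. These fits have 1 residual degree of freedom in place of 2, and the lone library of a group is assumed to vary like the others.

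**Figure D1:**
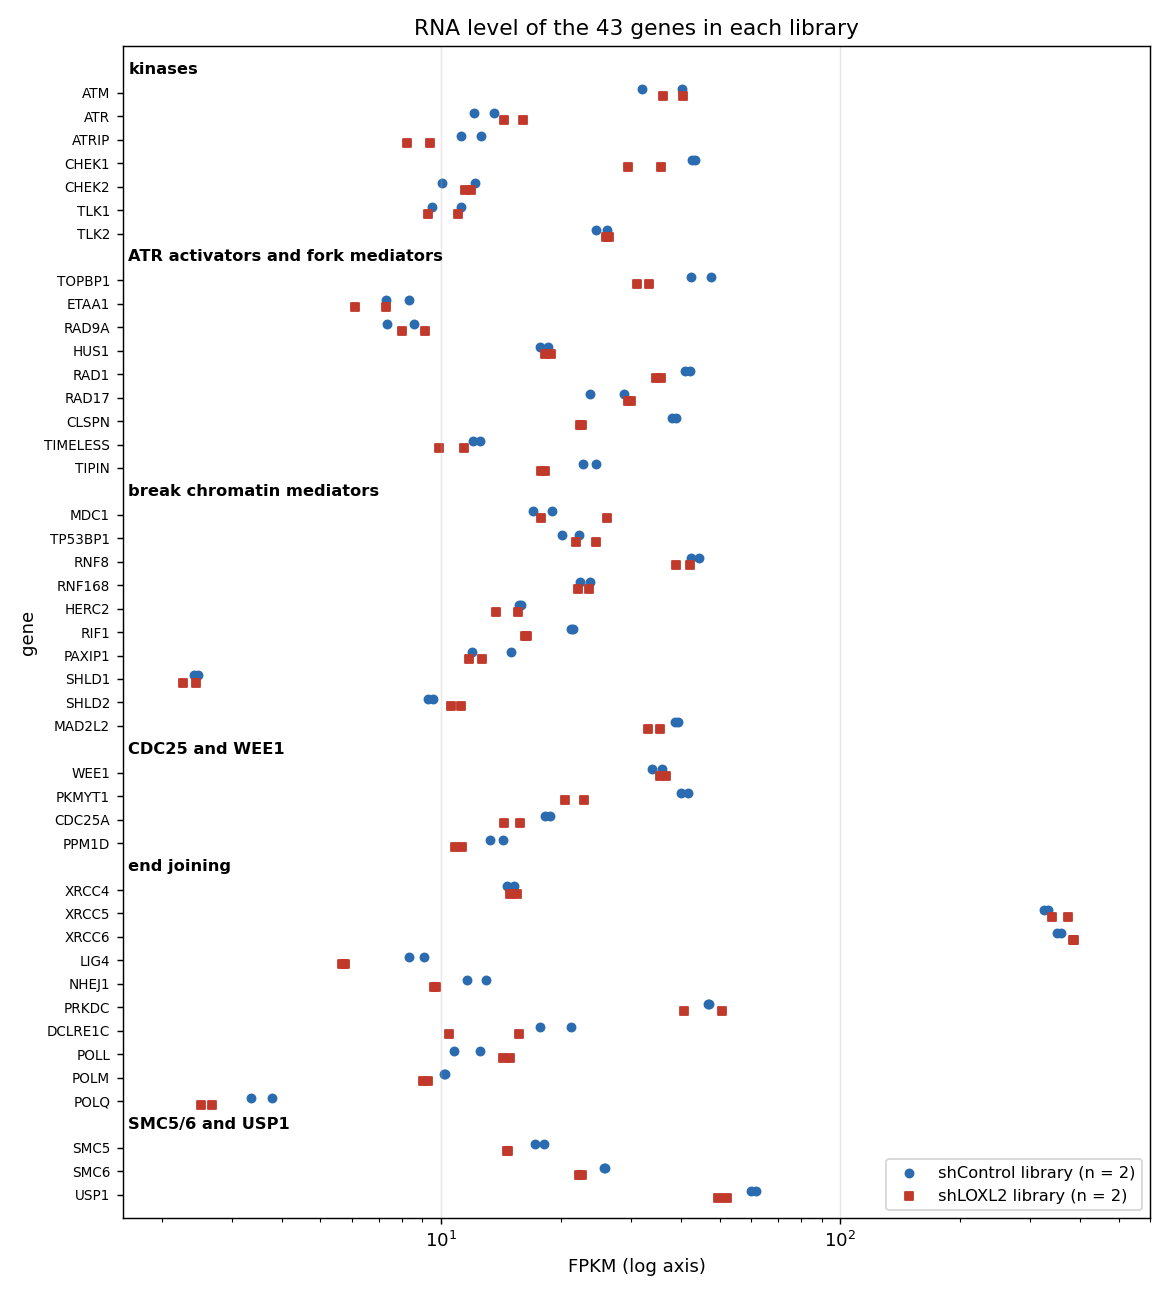
RNA level of each of the 43 genes, in FPKM on a log axis, with 1 point per library (circles for 2 shControl, squares for 2 shLOXL2) and genes grouped by role. XRCC5 and XRCC6 stand alone at the right, SHLD1 and POLQ lie lowest, and the circles of CLSPN and PKMYT1 lie well to the right of their squares.

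Levels spanned more than 2 orders of magnitude. The lowest was SHLD1, with a shControl mean of 2.45 FPKM, and the highest were the Ku subunit genes XRCC5, at 329, and XRCC6, at 354 FPKM, above 97.4% and 97.6% of the genes tested. The kinases and mediators lay between these extremes, with a median of 18.4 FPKM over the 43 genes and all 4 libraries. None of the 43 genes was listed at 0 in any library.

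The group of kinases holds ATM, ATR, CHEK1, CHEK2, TLK1 and TLK2, together with ATRIP, the partner of ATR. Of these 7 genes 0 fell and 0 rose, at a median log2 difference of 0.051. At an unadjusted p below 0.05 (limma) were 2 of the 7, against 35.9% of all genes. The kinase genes WEE1, PKMYT1 and PRKDC are counted in other groups, and PKMYT1 fell. ATM, the apical kinase of double-strand breaks, stood at 40.2 and 32.0 FPKM in shControl and at 40.6 and 36.1 FPKM in shLOXL2. The groups overlapped, and the 2 shControl libraries differed from each other by more than the group means did (log2 difference 0.092, 95% interval -0.32 to 0.51). CHEK2, the effector kinase downstream of ATM, stood at 12.2 and 10.1 FPKM in shControl and at 11.9 and 11.5 FPKM in shLOXL2, which also overlapped (0.073, interval -0.24 to 0.38). The ATM interval includes changes of the size seen in RAD1, SMC5, SMC6 and USP1, which fell. The CHEK2 interval includes that of SMC6 and, at its edge, that of RAD1, but not those of the other genes that fell. These values therefore do not show that ATM and CHEK2 were alike in the groups.

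ATR, the kinase of replication stress, stood at 12.1 and 13.6 FPKM in shControl and at 14.4 and 16.1 FPKM in shLOXL2. Both shLOXL2 libraries were higher than both shControl libraries, but the log2 difference of 0.23 ± 0.088 (SE, n = 2 per group) did not pass (limma adjusted p = 0.174). Its obligate partner ATRIP went the other way, at 11.3 and 12.6 FPKM in shControl and at 8.25 and 9.42 FPKM in shLOXL2, again without overlap and without passing (log2 -0.40 ± 0.096, limma adjusted p = 0.0791). CHEK1, the effector kinase of ATR, stood at 43.4 and 42.7 FPKM in shControl and at 35.6 and 29.4 FPKM in shLOXL2. Both shLOXL2 libraries were lower, and they differed from each other more than the shControl pair did (log2 -0.40 ± 0.11, limma adjusted p = 0.0936). ATRIP and CHEK1 both passed when protein-coding genes were fitted alone, with adjusted p of 0.0165 and 0.0145, and did not pass in any other alternative. ATRIP shares its locus with the exonuclease gene TREX1, which was also lower, at 5.46 and 5.17 FPKM in shControl and at 4.50 and 3.14 FPKM in shLOXL2, and the labels do not say whether reads were counted by strand or split between overlapping genes.

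The Tousled-like kinases TLK1 and TLK2, which phosphorylate histone chaperones and are restrained by the checkpoint, showed overlapping groups. TLK1 stood at 11.2 and 9.53 FPKM in shControl and at 11.1 and 9.32 FPKM in shLOXL2, and TLK2 at 26.1 and 24.5 and at 26.5 and 26.0 FPKM. Both are uncertain because the table also lists the pseudogenes TLK1P1, at a mean of 1.14 FPKM, and TLK2P1, at 6.52 FPKM, which could share their reads.

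**Figure D2:**
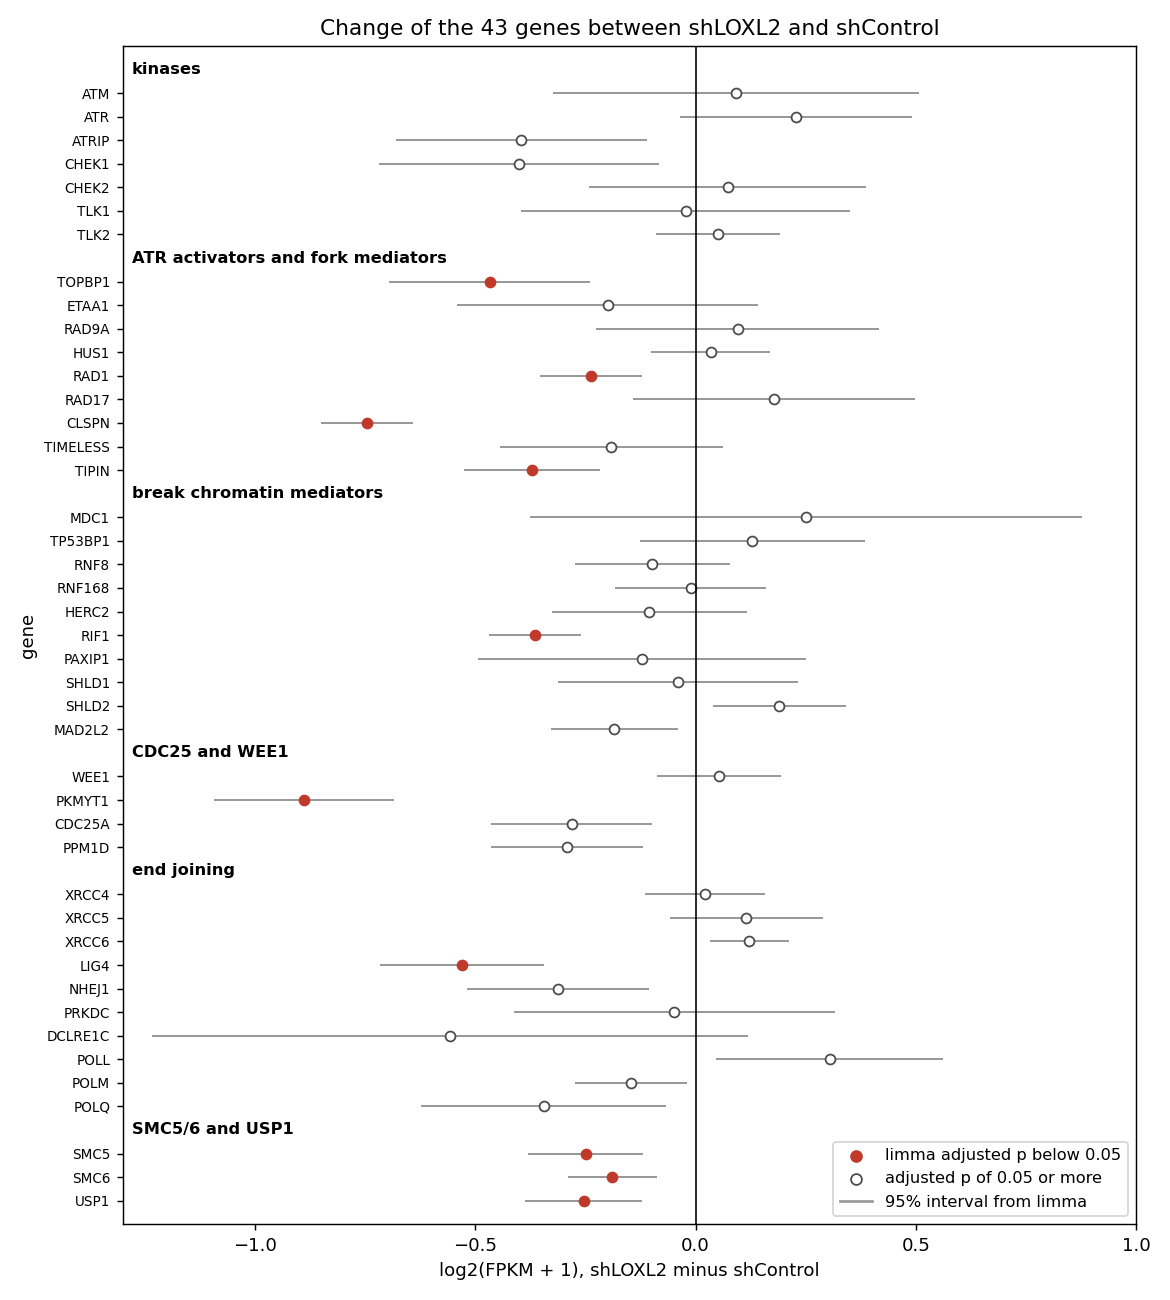
Log2 difference, shLOXL2 minus shControl, on the log2(FPKM + 1) scale for each of the 43 genes, with the 95% interval from limma and filled points for the 10 genes with an adjusted p below 0.05. All filled points lie to the left of 0, from SMC6 at -0.19 to PKMYT1 at -0.89, and the widest intervals belong to DCLRE1C and MDC1, whose 2 shLOXL2 libraries lie far apart.

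Of the 9 genes that activate ATR or mediate its signal at the replication fork, 4 fell and 0 rose, at a median log2 difference of -0.20. Among all genes tested 8.54% fell and 8.35% rose. At an unadjusted p below 0.05 (limma) were 4 of the 9, against 35.9% of all genes. CLSPN encodes claspin, the adaptor that brings CHEK1 to ATR, and had the smallest p of the 43 genes. It stood at 38.9 and 37.9 FPKM in shControl and at 22.4 and 22.6 FPKM in shLOXL2. The replicates lay close together in both groups and far from the other group, so that 58.6% of the control level remained (log2 -0.75 ± 0.035, limma adjusted p = 0.0124). TOPBP1, which switches on the ATR kinase, stood at 47.5 and 42.5 FPKM in shControl and at 33.4 and 31.1 FPKM in shLOXL2. All shLOXL2 values were lower, and 71.7% of the control level remained (log2 -0.47 ± 0.076, limma adjusted p = 0.0410). ETAA1, the other direct activator of ATR, stood at 7.31 and 8.34 FPKM in shControl and at 7.28 and 6.11 FPKM in shLOXL2, with groups that nearly touched (log2 -0.20, limma adjusted p = 0.313).

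TIMELESS and TIPIN form a complex that travels with the fork and supports claspin. TIPIN stood at 22.8 and 24.5 FPKM in shControl and at 18.2 and 17.9 FPKM in shLOXL2, and it fell (log2 -0.37 ± 0.051, limma adjusted p = 0.0318). TIMELESS stood at 12.5 and 12.1 FPKM in shControl and at 11.4 and 9.89 FPKM in shLOXL2. Its groups did not overlap either, but the spread between the shLOXL2 libraries was wide, and it did not pass (log2 -0.19 ± 0.085, limma adjusted p = 0.216).

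The ring-shaped 9-1-1 clamp, which presents TOPBP1 to ATR, is built of RAD9A, HUS1 and RAD1 and loaded by RAD17. RAD1 stood at 41.0 and 42.2 FPKM in shControl and at 35.7 and 34.6 FPKM in shLOXL2, without overlap, and it fell by 0.24 on the log2 scale (SE 0.038, limma adjusted p = 0.0400). This value is uncertain, since the pseudogene RAD1P1 is listed at 4.93 and 4.77 FPKM in shControl and at 3.92 and 4.12 FPKM in shLOXL2 and could share reads with it. The other subunits of the clamp had overlapping groups: RAD9A stood at 8.57 and 7.35 FPKM in shControl and at 9.13 and 8.00 FPKM in shLOXL2, and HUS1 at 17.7 and 18.6 FPKM and at 18.9 and 18.3 FPKM. RAD17 stood at 28.8 and 23.7 FPKM in shControl and at 29.5 and 29.9 FPKM in shLOXL2, slightly higher in both shLOXL2 libraries (log2 0.18, limma adjusted p = 0.332), beside a pseudogene, RAD17P1, at a mean of 2.92 FPKM.

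Promoter sequence is shown here for 5 of the 6 members whose window held letters of an E2F-type site, since E2F factors are the textbook regulators of genes switched on at the start of DNA replication. The windows come from RefSeq (GRCh38.p14) and reach from 250 bases before to 50 bases after an annotated start. They were found for 34 of the 43 genes, with more than 1 start for some, and not for TLK1, HUS1, PAXIP1, SHLD1, SHLD2, WEE1, PKMYT1, XRCC5 and PRKDC. The E2F-type letters searched were TTTGGCGC, TTTCCCGC, TTTCGCGC and TTTGCCGC on both strands, with overlapping matches taken as 1 site. Each stretch printed runs 5′ to 3′ on the gene's strand from 120 bases before to 10 bases after the start, with E2F-type letters and CCAAT boxes (ATTGG on the other strand) in capitals. The first 4 belong to genes that fell and the last, CDC25A, to a gene that did not pass. The match of the sixth, XRCC6, begins 42 bases after its start, beyond such a stretch, and is not printed.
CLSPN: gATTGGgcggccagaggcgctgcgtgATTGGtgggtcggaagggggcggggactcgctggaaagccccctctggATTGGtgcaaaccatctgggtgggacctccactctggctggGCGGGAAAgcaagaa
TOPBP1: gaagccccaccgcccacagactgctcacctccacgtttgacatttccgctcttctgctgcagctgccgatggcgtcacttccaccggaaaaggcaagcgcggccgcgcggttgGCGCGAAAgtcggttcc
TIPIN: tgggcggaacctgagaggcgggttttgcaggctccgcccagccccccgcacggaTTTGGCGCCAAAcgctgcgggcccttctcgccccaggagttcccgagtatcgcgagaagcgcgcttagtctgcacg
SMC6: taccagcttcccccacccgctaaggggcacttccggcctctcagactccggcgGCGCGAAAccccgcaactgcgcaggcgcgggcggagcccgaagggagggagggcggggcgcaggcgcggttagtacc
CDC25A: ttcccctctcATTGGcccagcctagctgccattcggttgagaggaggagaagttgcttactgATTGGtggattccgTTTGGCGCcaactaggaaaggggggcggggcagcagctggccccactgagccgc
These stretches lie at chr1:35769969-35770098, chr3:133661932-133662061, chr15:66356676-66356805, chr2:17753801-17753930 and chr3:48188408-48188537, in the order printed and all on the minus strand. CLSPN carries 1 E2F-type match at its start with 3 CCAAT boxes before it, TOPBP1 has its match at the start, and the TIPIN match reads the same on both strands. TIPIN has a second start in the table, whose window held no E2F-type match.

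Of all 27305 genes in the promoter table, 3.99% held an E2F-type match in at least 1 window (3.31% of 35116 windows). Among the members with a window, 4 of the 9 that fell held one, as did 2 of the 25 that did not pass, CDC25A and XRCC6. The mitotic CHR element TTTGAA was found in 2 of the 9 and 5 of the 25, against 18.2% of all genes, and CCAAT in 5 of the 9 and 21 of the 25, against 39.7%. The shares over all genes were taken without a filter on gene type or expression. The members are all protein-coding and expressed, so their counts and those shares are not like for like. The matches are counts of letters in a fixed window and not measured binding sites.

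Among the 10 adaptors and ligases that act on chromatin around a break, 1 fell and 0 rose (limma, with 3 of 10 at an unadjusted p below 0.05, against 35.9% of all genes), at a median log2 difference of -0.069. RIF1, which shields break ends from resection and also times replication, was the gene that fell. It stood at 21.3 and 21.5 FPKM in shControl and at 16.3 and 16.4 FPKM in shLOXL2. Replicates were nearly equal within both groups, and 76.6% of the control level remained (log2 -0.37 ± 0.035, limma adjusted p = 0.0198).

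MDC1, which binds the phosphorylated histone H2AX at a break, stood at 19.0 and 17.0 FPKM in shControl and at 26.1 and 17.8 FPKM in shLOXL2. Its higher mean in shLOXL2 came from replicate 1 alone, and without that library the log2 difference was -0.0125 in place of 0.25. The antisense transcript MDC1-AS1 is listed at 0.901 to 1.91 FPKM. TP53BP1, the adaptor that steers breaks to end joining, stood at 22.2 and 20.1 FPKM in shControl and at 24.5 and 21.9 FPKM in shLOXL2, with overlapping groups (log2 0.13, interval -0.12 to 0.38).

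The ubiquitin ligases of the pathway showed small differences. RNF168, which writes the histone mark read by TP53BP1, stood at 23.7 and 22.3 FPKM in shControl and at 23.6 and 22.1 FPKM in shLOXL2. These groups overlapped almost fully, and the log2 difference was -0.011 with an interval of -0.18 to 0.16. RNF8, which acts before RNF168, stood at 42.3 and 44.3 FPKM in shControl and at 38.8 and 42.1 FPKM in shLOXL2, slightly lower without passing (limma adjusted p = 0.331). HERC2, a partner of RNF8, stood at 15.7 and 15.9 FPKM in shControl and at 15.6 and 13.8 FPKM in shLOXL2, and its pseudogenes reach at most a mean of 0.822 FPKM.

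Downstream of TP53BP1 act PAXIP1 and the shieldin complex, which protects ends from resection. PAXIP1 stood at 15.0 and 12.0 FPKM in shControl and at 12.7 and 11.8 FPKM in shLOXL2, with overlap. SHLD1, the lowest of the 43 genes, stood at 2.47 and 2.42 FPKM in shControl and at 2.44 and 2.27 FPKM in shLOXL2, also with overlap. Both SHLD2 and MAD2L2 had groups that did not overlap, in opposite directions and without passing. SHLD2 stood at 9.31 and 9.58 FPKM in shControl and at 10.6 and 11.2 FPKM in shLOXL2 (log2 0.19 ± 0.050, limma adjusted p = 0.0929), and is uncertain because of its pseudogene SHLD2P2, at a mean of 2.05 FPKM. MAD2L2, which also serves translesion polymerase zeta, stood at 38.6 and 39.4 FPKM in shControl and at 33.1 and 35.4 FPKM in shLOXL2 (log2 -0.18 ± 0.048, limma adjusted p = 0.0911), and it passed when protein-coding genes were fitted alone (adjusted p = 0.0389). The remaining subunit, SHLD3, is not among the 43 genes and was added after its values were seen. It stood at 4.05 and 3.66 FPKM in shControl and at 3.03 and 2.69 FPKM in shLOXL2, lower without overlap and without passing (log2 -0.33 ± 0.096, limma adjusted p = 0.108).

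Of the 4 genes that set the phosphorylation of cyclin-dependent kinases or end the checkpoint, 1 fell and 0 rose (limma, with 3 of 4 lower at an unadjusted p below 0.05, against 18.2% of all genes). PKMYT1, the membrane-bound kinase that holds CDK1 inactive, had the largest change of the 43 genes. It stood at 41.7 and 40.0 FPKM in shControl and at 20.5 and 22.8 FPKM in shLOXL2. Both shLOXL2 libraries lay far below both shControl libraries, and 52.9% of the control level remained (log2 -0.89 ± 0.069, limma adjusted p = 0.0154). WEE1, the nuclear kinase with the same target, stood at 35.8 and 33.7 FPKM in shControl and at 35.5 and 36.7 FPKM in shLOXL2. Its groups overlapped, and its log2 difference of 0.053 had an interval of -0.086 to 0.19, beside -1.09 to -0.69 for PKMYT1. PKMYT1 overlaps the gene PAQR4, which was also lower in shLOXL2, and their reads cannot be told apart without the strand setting.

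CDC25A, the phosphatase that removes the marks of WEE1 and is degraded when CHEK1 is active, stood at 18.3 and 18.8 FPKM in shControl and at 14.4 and 15.8 FPKM in shLOXL2. PPM1D, the phosphatase that switches off ATM signalling, stood at 14.3 and 13.3 FPKM in shControl and at 11.3 and 10.8 FPKM in shLOXL2. Both were lower in every shLOXL2 library without passing (log2 -0.28 and -0.29, limma adjusted p of 0.0652 and 0.0563). They passed with a filter of 5 FPKM and with protein-coding genes fitted alone.

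In the end joining group of 10 genes, 1 fell and 0 rose (limma, with 4 lower and 2 higher at an unadjusted p below 0.05, against 18.2% and 17.6% of all genes), at a median log2 difference of -0.097. LIG4, the ligase that seals the break, stood at 8.34 and 9.07 FPKM in shControl and at 5.76 and 5.67 FPKM in shLOXL2. All shLOXL2 values were below the lowest shControl value, and 65.7% of the control level remained (log2 -0.53 ± 0.062, limma adjusted p = 0.0256). XRCC4, the scaffold that holds ligase IV, stood at 15.3 and 14.7 FPKM in shControl and at 14.9 and 15.5 FPKM in shLOXL2, with overlapping groups (log2 0.021, interval -0.11 to 0.15). NHEJ1, the XRCC4-like factor XLF, stood at 13.0 and 11.6 FPKM in shControl and at 9.64 and 9.76 FPKM in shLOXL2, lower in both libraries without passing (log2 -0.31 ± 0.069, limma adjusted p = 0.0674).

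The Ku ring, which binds the bare end first, was the most abundant component. XRCC5 (Ku80) stood at 325 and 333 FPKM in shControl and at 341 and 373 FPKM in shLOXL2, and XRCC6 (Ku70) at 350.3 and 357 FPKM and at 385 and 384 FPKM. Both were higher in every shLOXL2 library, by 0.11 and 0.12 on the log2 scale, and neither passed (limma adjusted p of 0.263 and 0.0794). XRCC6 passed when protein-coding genes were fitted alone (adjusted p = 0.0408), and its log2 difference was 0.035 with quantile normalization (adjusted p = 0.437). Its pseudogene XRCC6P2 is listed at a mean of 44.7 FPKM and could share reads with it. PRKDC, the DNA-dependent kinase recruited by Ku, stood at 46.9 and 47.0 FPKM in shControl and at 50.7 and 40.6 FPKM in shLOXL2, so that the shControl libraries lay between the shLOXL2 libraries.

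Of the enzymes that trim and fill ends, DCLRE1C, the Artemis nuclease, had the largest log2 difference of the end joining genes and the widest interval. It stood at 17.8 and 21.2 FPKM in shControl and at 15.7 and 10.5 FPKM in shLOXL2, without overlap (log2 -0.56, interval -1.23 to 0.12, limma adjusted p = 0.191). Without shLOXL2 replicate 2 that difference was -0.29. DCLRE1C overlaps the gene SUV39H2, which was also lower in shLOXL2. POLL, a gap-filling polymerase, was higher, at 12.5 and 10.8 FPKM in shControl and at 14.3 and 15.0 FPKM in shLOXL2 (log2 0.30 ± 0.086, limma adjusted p = 0.104). The related POLM was slightly lower, at 10.3 and 10.2 FPKM in shControl and at 9.28 and 9.04 FPKM in shLOXL2 (log2 -0.15 ± 0.042, limma adjusted p = 0.107). POLQ, the polymerase of the alternative pathway that joins ends through microhomology, stood at 3.77 and 3.35 FPKM in shControl and at 2.51 and 2.67 FPKM in shLOXL2, without overlap (log2 -0.34 ± 0.093, limma adjusted p = 0.0964). POLL, POLQ, NHEJ1 and DCLRE1C each passed with protein-coding genes fitted alone.

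SMC5 and SMC6 form a ring complex that supports repair and fork restart, and USP1 removes ubiquitin from PCNA and FANCD2. SMC5 stood at 18.1 and 17.2 FPKM in shControl and at 14.7 and 14.7 FPKM in shLOXL2, and SMC6 at 25.7 and 25.8 FPKM and at 22.6 and 22.3 FPKM. USP1 stood at 59.9 and 61.7 FPKM in shControl and at 49.5 and 52.2 FPKM in shLOXL2. The groups did not overlap for any of these genes, and all 3 fell by a small amount, with 83.2%, 87.3% and 83.6% of the control level remaining (log2 -0.25, -0.19 and -0.25, limma adjusted p of 0.0454, 0.0466 and 0.0444). These were the calls nearest to the threshold: SMC5 was not called with a pseudocount of 5 FPKM and SMC6 not with quantile normalization. Among all genes tested 8.54% fell, and 32.8% were lower without overlap.

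**Figure D3:**
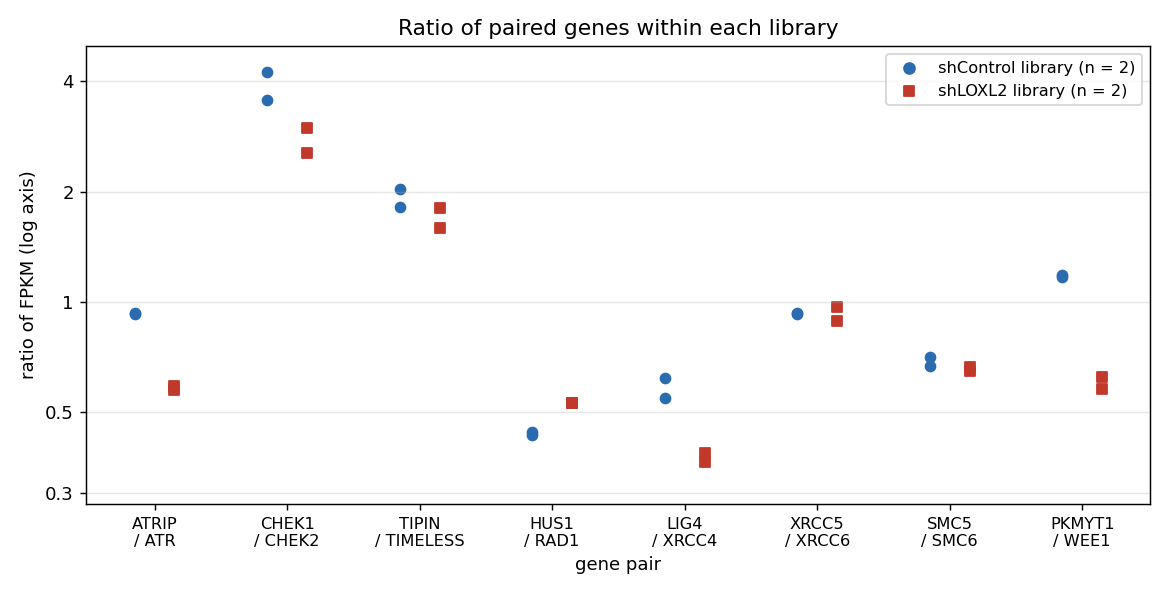
Ratio of FPKM between the named genes within each library, on a log axis, with 2 shControl circles and 2 shLOXL2 squares per pair. The groups stand clearly apart for ATRIP over ATR, HUS1 over RAD1, LIG4 over XRCC4 and PKMYT1 over WEE1, and overlap for XRCC5 over XRCC6 alone.

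Because several of these proteins work in fixed partnerships, the ratio of partners was taken within each library, in which the scaling of that library cancels. The pairs were chosen with their values known and serve as a description, and with 2 libraries a group an exact two-sided permutation test cannot go below 0.333. PKMYT1 over WEE1 was 1.17 and 1.19 in shControl and 0.576 and 0.622 in shLOXL2, so PKMYT1 was the more abundant transcript in one group and the less abundant in the other. ATRIP over ATR was 0.929 and 0.927 in shControl and 0.572 and 0.587 in shLOXL2. LIG4 over XRCC4 was 0.546 and 0.617 in shControl and 0.386 and 0.365 in shLOXL2. In these 3 pairs the ratio was lower in both shLOXL2 libraries than in either shControl library.

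CHEK1 over CHEK2 was 3.55 and 4.24 in shControl and 2.99 and 2.55 in shLOXL2, and HUS1 over RAD1 was 0.432 and 0.439 and then 0.529 and 0.529. The groups lay nearer to each other or overlapped for the remaining partners. XRCC5 over XRCC6 was 0.928 and 0.932 in shControl and 0.884 and 0.970 in shLOXL2, and TIPIN over TIMELESS was 1.82 and 2.03 and then 1.59 and 1.81. SMC5 over SMC6 was 0.706 and 0.668 in shControl and 0.648 and 0.661 in shLOXL2. For XRCC5 over XRCC6 the shControl ratios lay between those of shLOXL2, whereas the groups of the TIMELESS and SMC pairs did not overlap. For these and for CHEK1 over CHEK2, the gap between the groups was smaller than the difference between the shControl replicates.

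Around these members stand 63 further genes of the same pathways, from the break sensors to the ubiquitin readers. Of these 60 passed the filter, and 10 fell (16.7%) and 4 rose (6.67%), at a median log2 difference of -0.045. Among all genes tested 8.54% fell and 8.35% rose. For protein-coding genes the share was 10.4% in each direction. The falls with the largest size were RBBP8, the resection factor CtIP (log2 -0.70), the CDK inhibitor CDKN1A (-0.48), the end joining scaffold PAXX (-0.44) and ATAD5, which unloads PCNA (-0.40). The 4 that rose were BABAM2 (0.26) and BABAM1 (0.19) of the BRCA1-A complex, the phosphatase CDC25B (0.25) and the single-strand binding subunit RPA1 (0.19). Beside CDC25B, which rose, stand CDC25A, lower without passing, and CDC25C, at log2 -0.077 (limma adjusted p = 0.355).

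The MRN complex, which senses breaks and activates ATM, did not pass. MRE11 stood at 18.3 and 18.5 FPKM in shControl and at 12.9 and 15.8 FPKM in shLOXL2 (log2 -0.34, limma adjusted p = 0.130), while RAD50 (log2 -0.069) and NBN (log2 -0.053) were closer to 0. H2AX, the histone that ATM phosphorylates, stood at 79.0 and 81.1 FPKM in shControl and at 72.2 and 71.8 FPKM in shLOXL2 (log2 -0.15, limma adjusted p = 0.0617). CDKN1A stood at 60.8 and 60.1 FPKM in shControl and at 43.4 and 42.6 FPKM in shLOXL2, without overlap (limma adjusted p = 0.0134). PARP2 was listed at 0 in all 4 libraries, which can be a failed estimate.

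**Figure D4:**
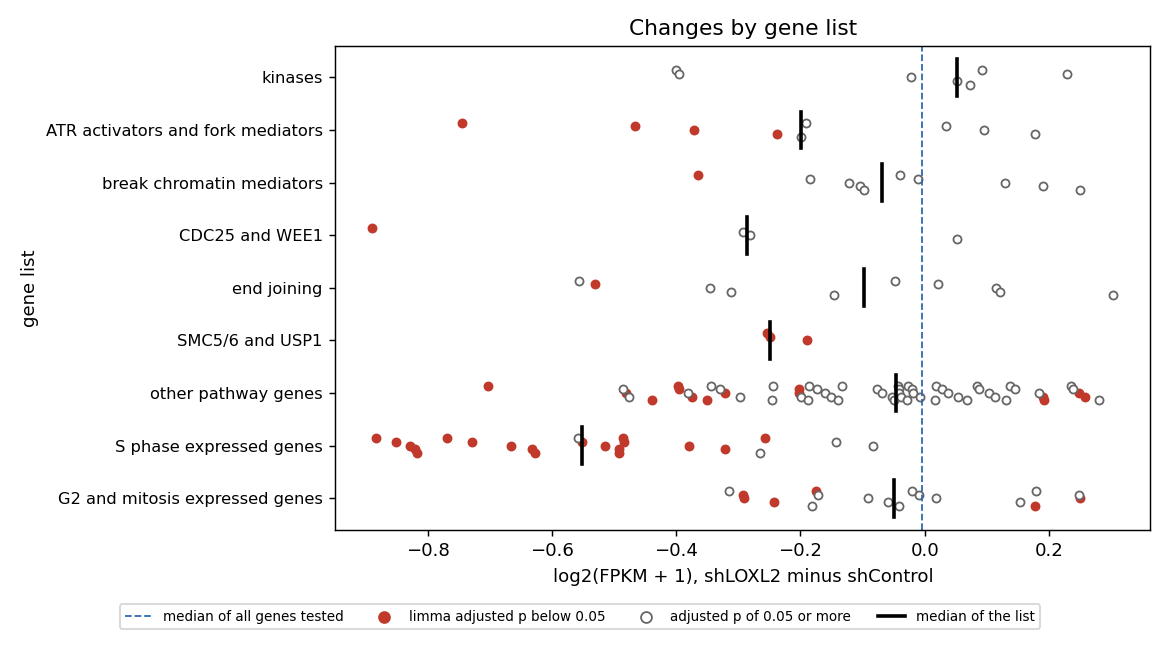
Log2 difference, shLOXL2 minus shControl, of each tested gene by list, with filled points for genes past the threshold, a bar at the median of each list and a dashed line at the median of all genes tested. The S phase list lies wholly to the left of 0 at a median of -0.55, while the medians of the kinases list (0.051), which includes ATRIP, and of the G2 and mitosis list (-0.050) lie close to the dashed line.

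Several members are transcribed mainly around S phase, so genes typical of that phase were read beside them. Of 23 S phase genes tested 19 fell and 0 rose (limma, with 21 of 23 at an unadjusted p below 0.05, against 35.9% of all genes), at a median log2 difference of -0.55 and with all 23 negative. Their summed level was 1708 and 1740 FPKM in shControl and at 1236 and 1279 FPKM in shLOXL2. The replicative helicase subunit MCM6 (log2 -0.85) and the transcription factor E2F1 (log2 -0.77) were among these S phase genes, of which 82.6% fell. Of 18 genes typical of G2 and mitosis 4 fell (22.2%) and 2 rose (11.1%), against 8.54% and 8.35% of all genes tested. The share that fell was close to the 23.3% of the 43 members. Their median log2 difference was -0.050, with summed levels of 2123 and 2129 FPKM in shControl and of 2125 and 2084 FPKM in shLOXL2. The S phase list moved together with the members that fell, CLSPN and PKMYT1 among them, and its part in their change was not tested.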

How the data were processed

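RNA values are FPKM per gene and library as deposited by the authors, 1 column per library. The submitters' processing notes list Bowtie, Cufflinks and the build GRCh37. Versions, annotation, strand setting and pooling are not given in the sources used here. Peak lists and the authors' mean and fold columns were left out. Of 63657 identifiers 52169 matched a symbol. The 16987 genes that averaged 1 FPKM or more were fitted as log2(FPKM + 1) with limma (trended variance prior, two-sided, Benjamini-Hochberg adjustment over all of them, threshold 0.05), which understates changes of low genes. In values simulated for 16987 genes of this comparison, the fit called 28% of genes given a log2 change of 0.5, 60% of genes given 1, and 5 unchanged genes. Each size was given to 100 genes that averaged 5 FPKM or more. In the data themselves 1450 genes fell and 1419 rose, which moves the adjusted threshold. The simulated shares therefore do not give the power of the real fit. The 43 members, the other lists and the motifs were chosen with earlier results of these data known, and all 43 are described. Other pathway genes are named by a rule: the 4 largest changes past the threshold in each direction and 6 set genes, of which 1 is not reported here. Alternatives covered the pseudocount, filter, normalization, variance prior, gene set, replicate block and each library left out. Versions were limma 3.58.1 under R 4.3.3, and pandas 2.3.3, numpy 2.4.6 and matplotlib 3.10.9 under Python 3.11.15.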

Additional observations from a re-analysis of the deposited data

How the results depend on the processing

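Against 10 members that fell and 0 that rose, 3 fell without a filter on low values, 4 with a variance prior without a trend, and 18 fell and 2 rose with protein-coding genes fitted alone. Over the fits with 1 library left out, 0 fell and 0 rose in each, with 8 to 16 lower and 0 to 3 higher at an unadjusted p below 0.05 (limma), where 70 to 217 of 16987 genes fell and 23.1% to 30.4% had such a p. Same-numbered libraries did not deviate together (correlation -0.0013 over 16987 genes). The labels do not say whether same-numbered libraries were prepared as pairs, and this correlation cannot settle it. With the replicate number as a block, 0 members fell and 0 rose, with 16 lower and 3 higher at an unadjusted p below 0.05 and 0 calls among all genes, of which 32.5% had such a p. Pseudocounts of 0.1 and 5 FPKM gave 10 and 9 falls, a filter of 5 FPKM 12 and quantile normalization 9. No call changed sign. Among members that did not pass, RNF168 was at log2 0.0072 with quantile normalization, and these crossed 0 with 1 library left out: ATM (-0.067 to 0.25), CHEK2 (-0.055 to 0.20), TLK1 (-0.14 to 0.091), RAD9A (-0.0026 to 0.19), MDC1 (-0.0125 to 0.51), RNF168 (-0.055 to 0.033), PAXIP1 (-0.27 to 0.027), XRCC4 (-0.0054 to 0.048) and PRKDC (-0.20 to 0.11). The cause was not tested. The depth of each library is unknown.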

Other observations

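Some members share their locus with another expressed gene, by the RefSeq gene spans, and the neighbour was lower too for several. PAQR4, which overlaps PKMYT1, was listed at 9.38 and 9.03 FPKM in shControl and at 4.87 and 4.83 FPKM in shLOXL2. SUV39H2, a histone methyltransferase gene that overlaps DCLRE1C, was listed at 33.6 and 37.4 FPKM in shControl and at 21.4 and 23.3 FPKM in shLOXL2. NDUFB1P1, a pseudogene that overlaps CDC25A, was listed at 2.25 and 3.64 FPKM and at 0.495 and 0.939 FPKM, and POLHP1, which overlaps XRCC5, at 6.18 and 7.05 FPKM and at 4.54 and 4.27 FPKM. AK6, which overlaps RAD17, was listed at 135 and 133 FPKM and at 117 and 128 FPKM. POLHP1 and AK6 were thus lower in shLOXL2, whereas XRCC5 and RAD17 were higher. GEN1, which overlaps SMC6, was listed at 16.1 and 15.0 FPKM and at 15.8 and 15.7 FPKM, with overlapping groups. These 6 were chosen after their values were seen, and without the strand setting reads of overlapping genes cannot be told apart.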
